A study of Mus musculus with 14 samples.

Results

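The genes that build the basement membrane of the heart were followed by RNA sequencing in mouse hearts labelled Clk3 KO or wild type, after pressure overload or sham surgery. They were the collagen IV genes Col4a1 and Col4a2, the laminin genes Lama2, Lama4, Lama5, Lamb1, Lamb2 and Lamc1, the nidogen gene Nid1 and the perlecan gene Hspg2. They were chosen by name and make up 10 of the 51912 genes in the count tables, and all 10 had enough counts to be tested. The 14 libraries were 4 from Clk3 KO hearts after TAC, 2 from wild-type hearts after TAC, 4 from Clk3 KO sham hearts and 4 from wild-type sham hearts, all from C57BL/6J mice. TAC is taken as transverse aortic constriction, an operation that narrows the aorta and loads the left ventricle with pressure. Clk3 belongs to the CDC-like kinases, which phosphorylate splicing factors of the SR family. Mice were 10 weeks old in both TAC groups, and 11 weeks old in replicates 1 and 2 and 10 weeks old in replicates 3 and 4 of both sham groups. The sources used here give neither the design of the Clk3 allele, nor the sex, nor the time after surgery, nor whether each library came from its own animal.

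A basement membrane is a thin sheet of matrix that surrounds each cardiomyocyte, lies under the endothelium of every vessel and encloses pericytes and smooth muscle cells. Laminins are trimers of an alpha, a beta and a gamma chain that assemble on cell surfaces through integrins and dystroglycan, and collagen IV forms a second, covalently cross-linked network that gives the sheet its tensile strength. Nidogen connects both networks and perlecan, a heparan sulfate proteoglycan, binds them and stores growth factors. In the heart, the laminin alpha-2 chain is the typical chain around muscle fibres, and the alpha-4 and alpha-5 chains are typical of vessel walls.

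Col4a1 (chromosome 8, 11198423 to 11312826, minus strand) and Col4a2 (chromosome 8, 11312805 to 11449287, plus strand) lie head to head in the GRCm38 build. Their first annotated exons share 22 bases, chr8:11312805-11312826, which are shown because the results below turn on this pair. Capitals mark a GC box, GGGCGG or its reverse complement, and the sequences are those of RefSeq (GRCm38.p6), each 5′ to 3′ on the strand of its gene.
Col4a2: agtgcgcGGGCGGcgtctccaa
Col4a1: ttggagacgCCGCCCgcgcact

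The stretches directly upstream of the first annotated exons of Nid1 (chr13:13437352-13437550, plus strand) and Lama5 (chr2:180225860-180226109, minus strand) are shown as well, since the call of each after TAC in wild type depended on the libraries or the tool used. Capitals mark GC boxes and, in Nid1, ATTGG, the reverse complement of a CCAAT box.
Nid1: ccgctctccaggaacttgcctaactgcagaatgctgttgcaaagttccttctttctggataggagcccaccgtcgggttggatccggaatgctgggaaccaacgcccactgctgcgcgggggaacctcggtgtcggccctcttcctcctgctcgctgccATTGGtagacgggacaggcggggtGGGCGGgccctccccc
Lama5: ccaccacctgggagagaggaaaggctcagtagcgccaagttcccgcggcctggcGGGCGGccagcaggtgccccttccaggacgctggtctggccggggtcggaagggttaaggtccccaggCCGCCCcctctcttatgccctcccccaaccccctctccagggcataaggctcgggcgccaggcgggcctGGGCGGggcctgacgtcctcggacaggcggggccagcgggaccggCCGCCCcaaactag

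RefSeq promoter windows of 300 bases, 250 before and 50 after the start site, were matched for 8 of the 10 genes, without Lama4 and Lamc1. On both strands GGGCGG occurred once each in Col4a1, Lama2 and Nid1, 2 times in Lamb1, 3 times in Col4a2, 4 times in Lama5 and 5 times in Hspg2, but not in Lamb2, and it was present in 35.66% of 32851 mouse windows of this length. CCAAT occurred once each in Col4a1, Col4a2, Lamb1 and Nid1 and was present in 37.41% of all windows. TATAAA (13.62% of windows) and TGANTCA, the motif of the AP-1 factors (7.808%), were in none of the 8. CAGAC, a core that SMAD factors bind, was in Col4a2, Lama2, Lama5, Lamb1 and Lamb2, and in 49.59% of all windows. These matches describe letters in a window and name no site of binding.

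Gene counts summed to 11385818 to 20369637 per library. Clk3 was still counted in every library labelled KO: in sham hearts it was at 62.8 to 67.4 CPM in KO and at 73.2 to 96.0 CPM in wild type, which did not overlap (exact two-sided permutation p = 0.0286, the smallest these groups allow, n = 4 and 4; edgeR adjusted p = 0.158). CPM are gene counts scaled to a common library size, with library sizes adjusted by the trimmed mean of M-values (TMM). After TAC it was at 64.9, 54.9, 50.7 and 61.4 CPM in KO and at 54.2 and 92.3 CPM in wild type (exact permutation p = 0.4, with 0.0667 the smallest possible, n = 4 and 2). The value of 54.2 CPM, within the KO range, was that of the library labelled wild-type TAC 1. It also carried 66.8 CPM of the Rplp0 pseudogene Gm8730, which lay between 57.4 and 67.1 CPM in all 8 KO libraries but between 1.26 and 1.63 CPM in the 5 remaining wild-type ones. Its heart hormone message was that of TAC hearts: Nppa, which encodes atrial natriuretic peptide, was at 639.5 to 1119 CPM in KO TAC and at 1912 and 1808 CPM in wild-type TAC, against 118 to 235 CPM in KO sham and 104 to 217 CPM in wild-type sham. Clock genes, a list added after values were seen, also moved with the surgery. Arntl, a core activator of the clock, was at 23.2, 23.2, 9.02 and 22.1 CPM in KO TAC and at 18.2 and 23.7 CPM in wild-type TAC, against 4.4, 4.82, 5.5 and 24.3 CPM in KO sham and 4.53 to 9.38 CPM in wild-type sham. KO TAC 3 thus had an Arntl level of the other sham hearts and KO sham 4 one of the other TAC hearts, and Dbp, a clock output gene, was high in KO TAC 3 (127 CPM, against 54.7 to 69.9 in the other KO TAC libraries) and low in KO sham 4 (55.4 CPM, against 165 to 190 in the other KO sham libraries).

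Per kb of annotated exon, collagen IV and the laminin beta-2 chain were the most abundant messages of the set in every group. After TAC, Col4a1 led with 127.7 ± 27.3 CPM per kb in KO (SD, n = 4) and 175 ± 25.8 in wild type (SD, n = 2), followed by Col4a2 at 105 ± 20.9 in KO and 142 ± 18.2 in wild type, and by Lamb2 at 71.2 ± 4.93 in KO and 72.8 ± 16.8 in wild type. In KO sham hearts Lamb2 (72.6 ± 2.41), Col4a1 (70.5 ± 11.6) and Col4a2 (59.6 ± 7.33) were the 3 highest, and the SD range of Col4a1 overlapped those of both others. In wild-type sham hearts Col4a1 (85.8 ± 18.2), Lamb2 (79.0 ± 11.4) and Col4a2 (77.0 ± 18.8) did not differ beyond their SDs. Below them in wild-type sham came Hspg2 at 42.4 ± 8.41 CPM per kb, Nid1 at 31.9 ± 2.73 and Lamc1 at 29.9 ± 3.88, each overlapping the next within their SDs. Lama5 (22.0 ± 3.36) and Lamb1 (18.1 ± 2.19) followed with overlapping SDs, and Lama4 (10.9 ± 1.26) and Lama2 (9.71 ± 0.494) closed the order on this scale, again with overlapping SDs. The order of the laminin alpha chains depended on the scale: with coding counts per coding kb, Lama4 (23.5 ± 2.74) and Lama5 (22.4 ± 3.45) were level in wild-type sham hearts and Lama2 was at 16.5 ± 0.892.

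**Figure D1:**
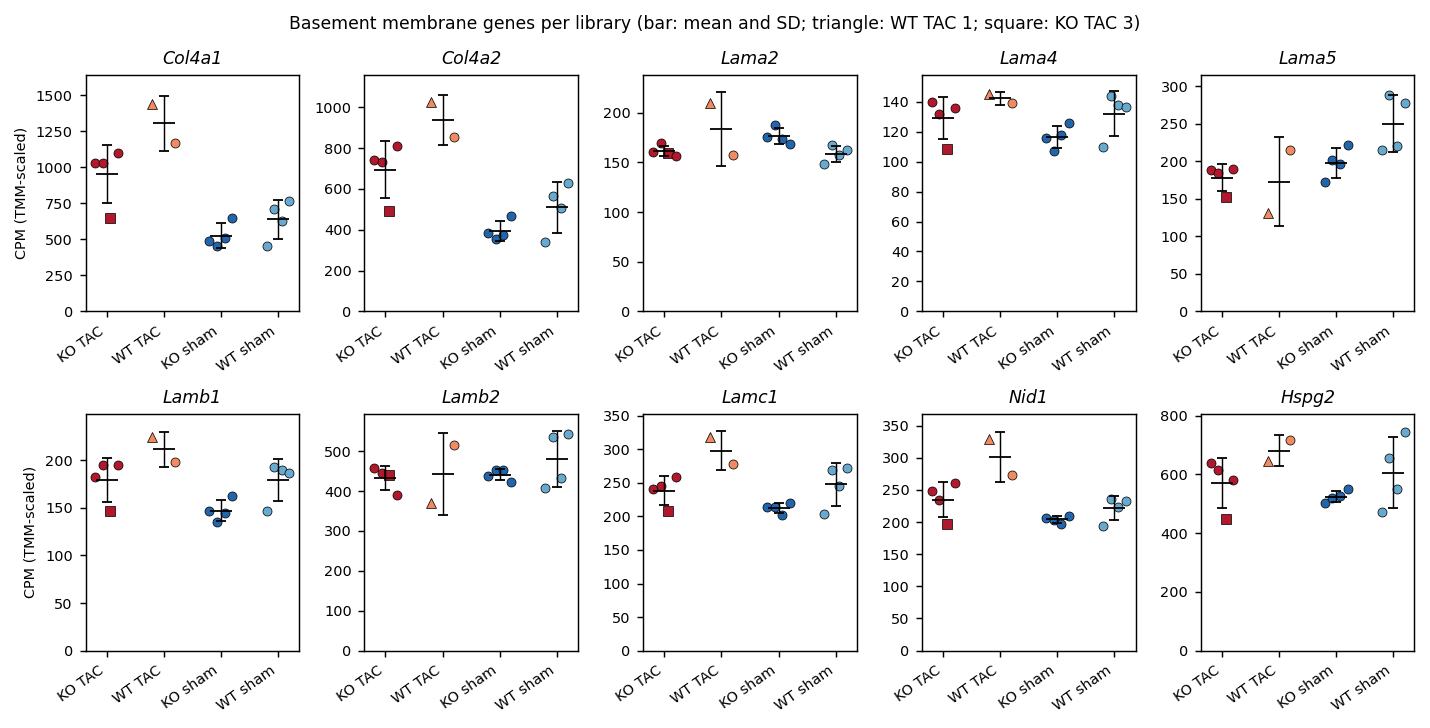
CPM of the 10 genes in each library (vertical axes from 0, in TMM-scaled CPM; horizontal axis, the 4 groups; black bar, mean and SD). Col4a1 and Col4a2 lay higher in both TAC groups, with KO TAC 3 (square) at the foot of its group, and the library labelled wild-type TAC 1 (triangle) was the highest of all for Col4a1, Col4a2, Lama2, Lama4, Lamb1, Lamc1 and Nid1 but the lowest for Lama5 and Lamb2.

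TAC in KO hearts raised both collagen IV genes and no other member past the threshold. Col4a1 (ENSMUSG00000031502.11), whose product gives 2 of the 3 chains of the common collagen IV trimer, was at 1032, 1031, 651 and 1098 CPM in KO TAC, against 492, 455, 508 and 652 CPM in KO sham. The groups touched at 1 point, KO TAC 3 lying just under KO sham 4, the pair whose clock genes stood apart. Col4a1 rose 1.81-fold (log2 0.86 ± 0.17, SE; 95% interval of the fold 1.4 to 2.34; edgeR adjusted p = 0.00632). Col4a2 (ENSMUSG00000031503.13), the partner chain, was at 741, 734, 492 and 809 CPM in KO TAC, against 383, 357, 373 and 465 CPM in KO sham, so every TAC library lay above every sham library. It rose 1.76-fold (log2 0.82 ± 0.17, SE; edgeR adjusted p = 0.00789). Reads called ambiguous were 0 for both genes in every library. How reads in their 22 shared bases were assigned is not given in the sources used here. In bulk tissue, more cells of a type and more RNA per cell cannot be told apart.

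Without KO TAC 3 and KO sham 4, a choice made after seeing the data, the rise of Col4a1 in KO was 1.12 on the log2 scale (adjusted p = 0.000526) and that of Col4a2 1.04 (adjusted p = 0.00141). Lamb1 and Nid1 then passed as well, at 0.43 (adjusted p = 0.0124) and 0.29 (adjusted p = 0.0458), which makes 4 of 10. Over all genes, 2096 were called in either direction without this pair, against 2033 with all libraries. With libraries of 10 weeks only, which leave KO sham 3 and 4 as the controls, Col4a1 stood at 0.72 (adjusted p = 0.127) and Col4a2 at 0.73 (adjusted p = 0.108), and 15 genes in all were called. Over all 15651 genes tested in KO, 6.73% were called higher after TAC and 6.26% lower, and every TAC library lay above every sham library in 10.6%. Of the 10 members, 2 were called higher, none was called lower, and 1 had no overlap. The median log2 change of the 10 was 0.15, and 7 were above 0.

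The laminin, nidogen and perlecan genes of KO hearts did not pass the threshold. Lamb1 (chromosome 12, 31265234 to 31329644, plus strand), the beta-1 chain, was nearest, at 182, 195, 146 and 195 CPM in KO TAC, against 146, 135, 145 and 162 CPM in KO sham (log2 0.29 ± 0.10, SE; edgeR adjusted p = 0.0778). KO TAC 3 lay among the sham libraries and the other 3 above them. Nid1, the connector of laminin and collagen IV, was at 248, 235, 196 and 261 CPM in KO TAC, against 206, 204, 197 and 209 CPM in KO sham (log2 0.20 ± 0.089, SE; adjusted p = 0.145), and again only KO TAC 3 overlapped. Lamc1 (chromosome 1, 153218922 to 153332786, minus strand), the gamma chain of most laminins, ranged from 208 to 259 CPM in KO TAC and from 203 to 221 CPM in KO sham (log2 0.16, adjusted p = 0.251). Hspg2 (chromosome 4, 137468769 to 137570630, plus strand) ranged from 448 to 638 CPM in KO TAC and from 503 to 550 CPM in KO sham (log2 0.12, adjusted p = 0.548). The alpha chains differed in sign: Lama4 (chromosome 10, 38965515 to 39110188, plus strand) was at 0.15 (adjusted p = 0.313), Lama2 at −0.13 (adjusted p = 0.304) and Lama5 at −0.15 (adjusted p = 0.494). Lamb2 (chromosome 9, 108479736 to 108490530, plus strand), the beta-2 chain, was at −0.03 with a 95% interval of −0.25 to 0.20.

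**Figure D2:**
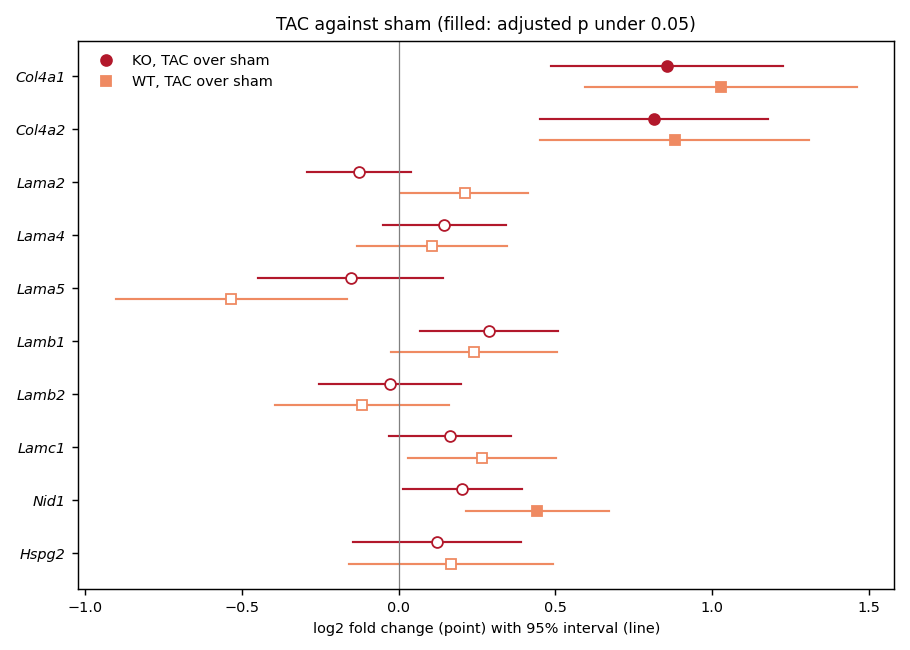
Log2 fold change of TAC over sham for each gene in KO (circles) and wild type (squares), with 95% intervals from the edgeR fit; filled symbols passed an adjusted p of 0.05. The collagen IV genes stand apart at 0.82 to 1.03 in both genotypes, while the laminins lie between −0.53 and 0.29.

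In wild-type hearts TAC raised the same 2 collagen IV genes and Nid1. Col4a1 was at 1443 and 1170 CPM in wild-type TAC, against 455, 708, 630 and 768 CPM in wild-type sham, and rose 2.04-fold (log2 1.03 ± 0.20, SE; 95% interval of the fold 1.51 to 2.76; edgeR adjusted p = 0.00379). Col4a2 was at 1024 and 853 CPM in wild-type TAC, against 340.1, 563, 504 and 631 CPM in wild-type sham, and rose 1.84-fold (log2 0.88 ± 0.20, SE; adjusted p = 0.00975). Both TAC libraries exceeded all 4 sham libraries for each gene. Nid1 (ENSMUSG00000005397.8, chromosome 13, 13437551 to 13512269, plus strand) was at 329 and 274 CPM in wild-type TAC, against 194, 236, 223 and 233 CPM in wild-type sham. It rose 1.36-fold (log2 0.44 ± 0.11, SE; adjusted p = 0.0133), without overlap.

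Without the library whose genotype label is in doubt, 1 wild-type TAC library remained and none of these 3 calls was kept. With wild-type TAC 2 assumed to vary like the other groups, calls also fell in number over all genes tested. Without the library labelled wild-type TAC 1, Col4a1 was at 0.87, Col4a2 at 0.74 and Nid1 at 0.30. Without it and without KO TAC 3 and KO sham 4, Col4a1 was called at 0.86 (adjusted p = 0.0187) and the others were not, at 0.73 for Col4a2 (adjusted p = 0.0662) and 0.29 for Nid1 (adjusted p = 0.162). In libraries of 10 weeks only, Col4a1 was at 0.90 (adjusted p = 0.0374), Col4a2 at 0.72 (adjusted p = 0.0664) and Nid1 at 0.40 (adjusted p = 0.103). In wild type, 6.91% of all genes tested were called higher after TAC and 5.3% lower, and every TAC library lay above every sham library in 16.4%. Of the 10 members, 3 were called higher and none lower, and 5 had no overlap, namely Col4a1, Col4a2, Lamb1, Lamc1 and Nid1. Their median log2 change was 0.23, with 8 above 0.

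Among the laminins of wild-type hearts, Lama5 had the largest difference and it did not pass. Lama5 (chromosome 2, 180176373 to 180225859, minus strand) encodes the alpha-5 chain of vessel walls. It was at 131 and 215 CPM in wild-type TAC, against 215, 289, 220 and 277 CPM in wild-type sham (log2 −0.53 ± 0.17, SE; edgeR adjusted p = 0.0568). The low value was that of the library labelled wild-type TAC 1, and without it the difference was −0.22. Without wild-type TAC 2, which leaves only that library in its group, the difference was −0.94. With all libraries, DESeq2 called Lama5 lower at the same size as edgeR, −0.53 (DESeq2 adjusted p = 0.0231). Lamb1 was at 225 and 199 CPM in wild-type TAC, against 147, 193, 190 and 186 CPM in wild-type sham (log2 0.24, adjusted p = 0.24). Lamc1 was at 318 and 277 CPM in wild-type TAC, against 203, 270, 245 and 273 CPM in wild-type sham (log2 0.27, adjusted p = 0.135), and neither gene overlapped between the groups. Lama4 (0.11), Hspg2 (0.17) and Lamb2 (−0.12) had adjusted p-values of 0.602, 0.537 and 0.625.

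Lama2 (chromosome 10, 26980036 to 27619758, minus strand), the alpha chain of muscle fibres, divided the 2 wild-type TAC libraries. It was at 161, 169, 160 and 157 CPM in KO TAC and at 210 and 157 CPM in wild-type TAC, against 175, 188, 174 and 168 CPM in KO sham and 148, 167, 157 and 162 CPM in wild-type sham. The library labelled wild-type TAC 1 was the one at 210 CPM. The TAC difference in wild type was 0.21 ± 0.095 (SE; edgeR adjusted p = 0.171) and −0.01 without that library. It was 0.41 without wild-type TAC 2, where that library alone stood for its group. Among the 10 genes, Lama2 had the smallest p in the test of whether the TAC effect differed between genotypes (log2 −0.34 ± 0.12, SE; unadjusted p = 0.015, adjusted p = 0.629). With 1 library left out this difference ran from −0.53 to −0.11. Without KO TAC 3, KO sham 4 and the library labelled wild-type TAC 1, the difference was −0.12.

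No member was called between genotypes. In sham hearts, 9 of the 10 were lower in KO, with a median log2 difference of −0.21. The lowest was Col4a2, at 383, 357, 373 and 465 CPM in KO sham and 340.1, 563, 504 and 631 CPM in wild-type sham (log2 −0.37 ± 0.17, SE; edgeR adjusted p = 0.269). Lama5 ranged from 173 to 222 CPM in KO sham and from 215 to 289 CPM in wild-type sham (−0.34 ± 0.14, adjusted p = 0.216), Lamb1 differed by −0.29 ± 0.10 (adjusted p = 0.163) and Lamc1 by −0.22 ± 0.091 (adjusted p = 0.224). Lama2 went the other way (0.15 ± 0.078, adjusted p = 0.323), every KO sham library lying above every wild-type sham library. The share of all genes without overlap in this comparison was not counted. By edgeR 0 of the 10 were called, and DESeq2 called 0. In edgeR 4 of the 10 had an unadjusted p under 0.05, against 18% of all genes tested. Over all genes, 0.888% were called in either direction. Wild-type sham 1 was the lowest of its group for all 10 genes, and without it Lamb1 (−0.37, adjusted p = 0.0475) and Lamc1 (−0.30, adjusted p = 0.0475) were called lower in KO. Over all genes, 531 were then called in either direction, against 139 with all libraries.

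After TAC, 6 of the 10 genes were lower in every KO library than in both wild-type libraries, against 10.8% of all genes tested. They were Col4a1, Col4a2, Lamb1, Lamc1, Nid1 and Hspg2. The sizes were −0.46 ± 0.21 for Col4a1 (adjusted p = 0.32), −0.44 ± 0.20 for Col4a2 (adjusted p = 0.338), −0.32 ± 0.11 for Lamc1 (adjusted p = 0.178) and −0.36 ± 0.11 for Nid1 (log2, SE; adjusted p = 0.121). Neither edgeR nor DESeq2 called any of the 10. In edgeR 3 had an unadjusted p under 0.05, against 14.79% of all genes tested. Of all genes, 0.377% were called higher and 1.11% lower in KO. Without the library labelled wild-type TAC 1, Col4a1 and Col4a2 were both at −0.30 (adjusted p = 0.684 and 0.681) and Lamc1 and Nid1 both at −0.22 (adjusted p = 0.549 and 0.521). Without KO TAC 3 and KO sham 4 as well, Col4a1 was at −0.15, Col4a2 at −0.17, Lamc1 at −0.16 and Nid1 at −0.14. Without wild-type TAC 2, which leaves only the library labelled wild-type TAC 1 in its group, Lama2 was at −0.38.

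The TAC effects of the genotypes did not differ past the threshold for any member. The difference, KO minus wild type, was −0.17 for Col4a1 with a 95% interval of −0.75 to 0.40 and −0.07 for Col4a2 with an interval of −0.64 to 0.51, so effects of either sign remain within these intervals. Both turned positive without KO TAC 3 and KO sham 4, to 0.10 and 0.17. Called members were 0 by edgeR, with 1 at an unadjusted p under 0.05, and 0 by DESeq2, while 0.0192% of all genes were called. The comparisons share their KO TAC, wild-type TAC or sham libraries and are not independent of each other.

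**Figure D3:**
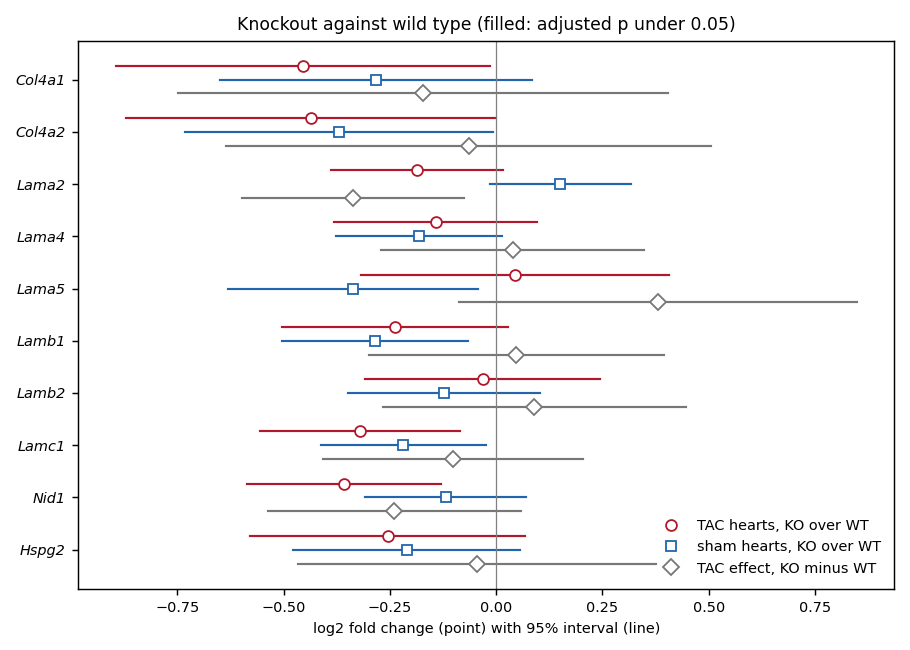
Log2 differences between genotypes for each gene with 95% intervals: KO over wild type in TAC hearts (circles), KO over wild type in sham hearts (squares), and the TAC effect in KO minus that in wild type (diamonds). All symbols are open, since no member passed an adjusted p of 0.05, and most points of the first 2 kinds lie below 0.

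The balance of collagen IV over laminin moved with TAC, and that between the collagen chains varied over a narrow range. Per kb of exon, Col4a1 over Lamc1 was 4.74, 4.64, 3.47 and 4.71 in KO TAC and 5.03 and 4.68 in wild-type TAC, against 2.54, 2.36, 2.78 and 3.27 in KO sham and 2.48, 2.91, 2.84 and 3.12 in wild-type sham. The TAC libraries lay above the sham libraries of their genotype without overlap, on coding counts per coding kb as well. KO TAC 3 had the lowest ratio of the TAC libraries and KO sham 4 the highest of the sham libraries. Col4a2 over Col4a1 was 0.824 ± 0.0223 in KO TAC, 0.811 ± 0.0157 in wild-type TAC, 0.849 ± 0.0382 in KO sham and 0.892 ± 0.0354 in wild-type sham (SD, n = 4, 2, 4 and 4), and ran from 0.80 to 0.93 over all 14 libraries. In wild type it was lower in both TAC libraries (0.80 and 0.82) than in all 4 sham libraries (0.84 to 0.93), on coding counts as well, while the KO groups overlapped. No test was run on these ratios, since the members were chosen with results known.

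Among the laminin alpha chains, the share of Lama2 was larger in KO sham than in wild-type sham hearts. Per kb of exon, Lama5 was at 17.4 ± 1.75 CPM in KO sham and 22.0 ± 3.36 in wild-type sham. Lama2 was at 10.8 ± 0.497 and 9.71 ± 0.494 (SD, n = 4 each), so the share depended on both genes. Of the summed Lama2, Lama4 and Lama5 levels per kb of exon, Lama2 made up 30.2%, 30.2%, 28.2% and 25.6% in KO sham and 24.5%, 21.5%, 23.8% and 21.8% in wild-type sham. These ranges did not overlap, and on coding counts they were 29.1 to 34.3% in KO sham and 25.2 to 28.3% in wild-type sham. After TAC the share was 25.6 to 30.4% in KO. Of the wild-type TAC libraries, replicate 2 had 24.0%, and 35.4% was found in the one labelled wild-type TAC 1. Lama4 made up 28.0 to 30.6% in KO TAC and 28.8 and 33.1% in wild-type TAC, against 23.3 to 27.0% in KO sham and 24.5 to 28.3% in wild-type sham. Lama5 supplied the rest, at 41.5 to 44.4% in KO TAC and 31.5 and 47.2% in wild-type TAC, against 42.8 to 48.4% in KO sham and 47.9 to 53.4% in wild-type sham. Of the beta chains, Lamb2 made up 76.5 to 83.1% in KO TAC and 72.9 and 80.9% in wild-type TAC, against 80.9 to 84.5% in KO sham and 78.8 to 82.6% in wild-type sham.

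**Figure D4:**
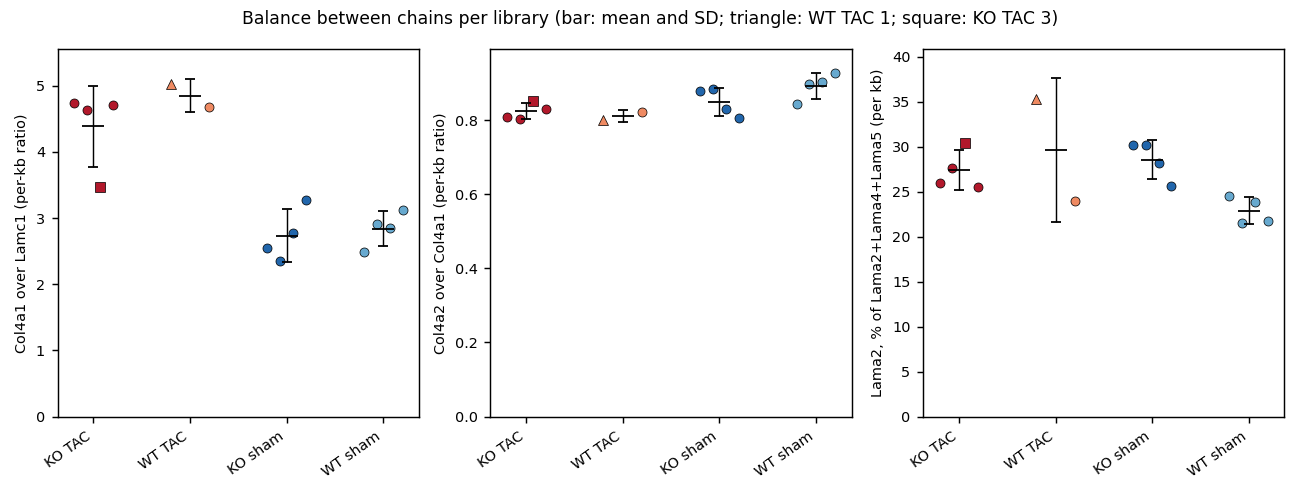
Ratios and shares per library on levels per kb of exon (vertical axes from 0; horizontal axis, the 4 groups; black bar, mean and SD). Col4a1 over Lamc1 separates TAC from sham libraries, Col4a2 over Col4a1 stays between 0.80 and 0.93, and the share of Lama2 is higher in KO sham than in wild-type sham libraries.

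For Nid1, most counts lay in the untranslated part of the gene, and no call after TAC was left when only the coding part was counted. The untranslated share was 64.7%, 63.4%, 70.1% and 64.1% in KO TAC and 62.5% and 69.2% in wild-type TAC, against 60.5%, 57.9%, 61.3% and 61.4% in KO sham and 69.2%, 59.1%, 59.4% and 59.9% in wild-type sham. All KO TAC libraries lay above all KO sham libraries, and wild-type sham 1 overlapped the wild-type TAC libraries. Col4a1, Col4a2, Lamc1 and Hspg2 also had a higher untranslated share in every KO TAC than in every KO sham library. For Lamc1 it was 40.4 to 44.2% against 37.8 to 40.2%, for Hspg2 13.7 to 17.6% against 11.1 to 12.8%. Lama2, Lama4, Lama5, Lamb1 and Lamb2, with shares of at most 4.43%, did not. Over all genes the KO groups overlapped, and wild-type sham 1 had the highest share of all libraries, 36.2%. With coding counts only, the TAC difference of Nid1 was 0.001 in KO (edgeR adjusted p = 0.997) and 0.28 in wild type (adjusted p = 0.362), which ended the call in wild type. KO TAC 3, wild-type TAC 2 and wild-type sham 1 had the highest untranslated share of their groups and the lowest Nid1 CPM, whereas KO sham 4 had the highest of both in its group. Whether RNA quality had a part in this was not tested. The collagen IV calls held on coding counts, at 0.81 in KO (adjusted p = 0.00854) and 1.01 in wild type (adjusted p = 0.00394) for Col4a1, and at 0.76 (adjusted p = 0.0114) and 0.86 (adjusted p = 0.0104) for Col4a2.

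**Figure D5:**
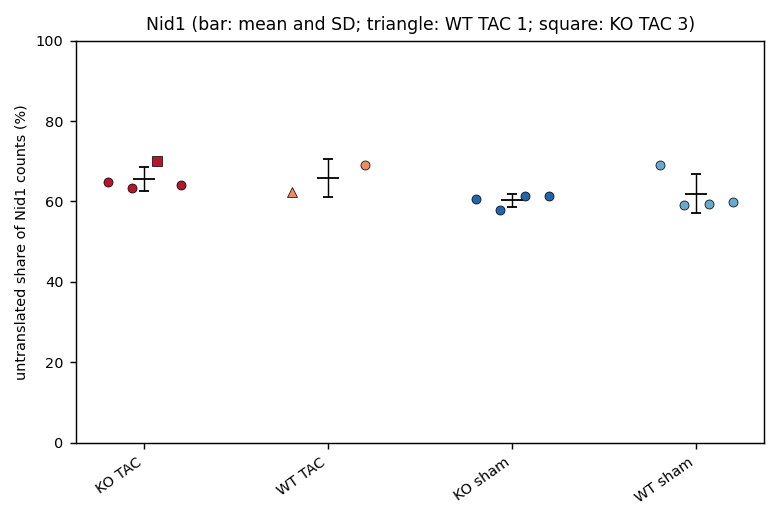
Share of Nid1 counts in the untranslated part of the gene, in percent, per library and group (vertical axis 0 to 100; black bar, mean and SD). Shares were 63.4 to 70.1% in KO TAC and 57.9 to 61.4% in KO sham libraries, and wild-type sham 1 stood at 69.2%, apart from the other wild-type sham libraries.

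Other structural genes of the basement membrane moved in both directions after TAC. Of 27 tested, 6 rose and 2 fell in KO, and 9 rose and 2 fell in wild type, by edgeR at an adjusted p of 0.05. Sparc, a collagen-binding matricellular protein, rose to 689 ± 128 CPM in KO TAC, against 376 ± 51.3 in KO sham (adjusted p = 0.0014), and to 1046 ± 163 in wild-type TAC, against 501 ± 44.0 in wild-type sham (SD; adjusted p = 0.000382). Col15a1, a collagen that links basement membranes to the fibres around them, rose 1.58-fold in KO (adjusted p = 0.00809) and 2.27-fold in wild type (adjusted p = 0.000253). In KO, Col18a1, the source of endostatin, rose 1.79-fold (adjusted p = 0.011) and the elastic fibre protein Fbln2 1.46-fold (adjusted p = 0.016). In wild type, the minor collagen IV chain Col4a4 rose 1.71-fold (adjusted p = 0.00471), and Frem1 was called, at 1.85 and 9.36 CPM in wild-type TAC against 0.108 to 0.781 CPM in wild-type sham, a level too low for a fold. Egflam (pikachurin, a dystroglycan ligand) fell by 0.59 on the log2 scale in KO (adjusted p = 0.00876) and by 0.80 in wild type (adjusted p = 0.00411), and Lamb3, the beta-3 laminin chain, fell by 0.55 (adjusted p = 0.0189) and 0.73 (adjusted p = 0.0126). Lama1 had 0 to 3 counts and was not tested. Without KO TAC 3 and KO sham 4, 11 rose in KO, and with 1 library left out 3 to 8 did, 3 being the count without KO sham 2 or KO TAC 4. Without the library labelled wild-type TAC 1, 2 rose and none fell in wild type. Sparc (adjusted p = 0.0166) and Col15a1 (adjusted p = 0.0144) were those 2, while Frem1 (adjusted p = 0.0545), Col4a4 (0.171), Egflam (0.108) and Lamb3 (0.0609) lost their calls. On coding counts Lamb3 was called in neither genotype. With libraries of 10 weeks only, none of the 27 was called in KO and 5 rose in wild type. Between genotypes after TAC, 3 of the 27 were lower in KO, among them Col15a1 at 162 ± 30.2 CPM in KO TAC and 297 ± 63.4 in wild-type TAC (SD, n = 4 and 2; adjusted p = 0.0131), and none was without the library labelled wild-type TAC 1 (Col15a1 adjusted p = 0.2).

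Of 23 receptors tested, 4 rose and none fell in KO after TAC, and 3 rose and 1 fell in wild type. Itga9, an integrin alpha subunit, rose 1.78-fold in KO (144 ± 22.4 CPM in TAC, against 81.3 ± 2.63 in sham; SD; adjusted p = 0.00395) and 2.19-fold in wild type (adjusted p = 0.000755). The collagen receptor kinase Ddr1 rose 1.31-fold in KO (adjusted p = 0.029) and 1.34-fold in wild type (adjusted p = 0.0381). In KO, the laminin-binding Itga6 rose 1.29-fold (adjusted p = 0.0443) and the syndecan Sdc3 1.39-fold (adjusted p = 0.0318), and in wild type Itgb1, the common beta subunit of these integrins, rose 1.26-fold (adjusted p = 0.0444) while the sarcoglycan Sgca fell by 0.35 (log2; adjusted p = 0.0258). In KO none of these 4 calls held on coding counts, where the adjusted p of Itga9 was 0.0645, and the count fell to 1 without KO sham 2, KO TAC 2 or KO TAC 4 and to 2 without KO sham 1, KO sham 3 or KO TAC 1. Without KO TAC 3 and KO sham 4, Ddr1 was not called (adjusted p = 0.116). Between genotypes in sham hearts, Dmd (dystrophin, which ties dystroglycan to actin) was the 1 receptor gene called, at 324 ± 20.9 CPM in KO sham and 237 ± 18.1 in wild-type sham (SD, n = 4 each; 1.36-fold; adjusted p = 0.0231). With libraries of 10 weeks only, Dmd was at 0.49 on the log2 scale and was not called (adjusted p = 0.28), nor was it without any 1 of KO sham 1, 2 and 3 or wild-type sham 2, 3 and 4. In wild type after TAC, Itga9 was the 1 receptor gene called without the library labelled wild-type TAC 1 (log2 0.72, adjusted p = 0.0444), where Ddr1 (adjusted p = 0.255), Itgb1 (log2 0.091, adjusted p = 0.724) and Sgca (adjusted p = 0.363) were not.

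Genes that fold, modify, export or cross-link basement membrane collagen and laminin also moved. Of 25, 7 rose and 1 fell in KO, and 5 rose and 2 fell in wild type. P3h2, a prolyl 3-hydroxylase that acts on collagen IV, rose 1.68-fold in KO (adjusted p = 0.00216) and 2.03-fold in wild type (adjusted p = 0.00024). Serpinh1, the collagen chaperone HSP47, rose 1.43-fold in KO (adjusted p = 0.00544) and 1.48-fold in wild type (adjusted p = 0.00601). In KO the lysyl hydroxylase Plod3 rose 1.32-fold (adjusted p = 0.00619) and the prolyl 4-hydroxylase subunit P4ha1 1.46-fold (adjusted p = 0.0243). In wild type P3h3, a relative of P3h2, rose 1.52-fold (adjusted p = 0.00117) and Loxl2, a cross-linker of collagen IV, 2.43-fold (adjusted p = 0.00126). Both were lower in KO than in wild type after TAC: P3h3 was at 20.7 ± 2.11 CPM in KO TAC and 33.2 ± 3.17 in wild-type TAC (adjusted p = 0.0037), and Loxl2 at 28.8 ± 8.67 and 57.6 ± 19.4 (SD, n = 4 and 2; adjusted p = 0.0336). Mia2, part of the machinery that exports large cargo such as collagen from the endoplasmic reticulum, fell by 0.43 in KO (adjusted p = 0.00128) and by 0.50 in wild type (log2; adjusted p = 0.000763). Without the library labelled wild-type TAC 1, 3 of the 25 rose in wild type (P3h2, P3h3 and Serpinh1) and 1, P3h3 (adjusted p = 0.0184), was lower in KO than in wild type after TAC. Loxl2 then lost both calls (adjusted p = 0.0685 after TAC in wild type and 0.343 between genotypes). In KO the count of 7 fell to 3 without KO sham 1, 2 or 3 and to 4 without KO TAC 4.

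Of 21 proteases and inhibitors that act on basement membranes, 8 rose and none fell in KO after TAC, and 7 rose and 1 fell in wild type. Mmp2, a gelatinase that cleaves collagen IV, was at 82.0 to 107 CPM in KO TAC and 182 and 188 CPM in wild-type TAC, against 53.2 to 65.4 CPM in KO sham and 71.4 to 80.7 CPM in wild-type sham. It rose 1.63-fold in KO (adjusted p = 0.000585) and 2.43-fold in wild type (adjusted p = 1.91e-06), and was lower in KO TAC than in wild-type TAC (log2 −0.96 ± 0.10, SE; adjusted p = 0.000228). Mmp14, its membrane-bound activator, rose 1.74-fold in KO (adjusted p = 0.0105) and 2.3-fold in wild type (adjusted p = 0.00119). The inhibitor Timp1 rose from low levels, 4.76-fold in KO (adjusted p = 0.00564) and 7.06-fold in wild type (adjusted p = 0.00105). It was at 3.69 to 17.8 CPM in KO TAC, against 1.15 to 2.47 CPM in KO sham. In wild type it was at 12.59 and 17.65 CPM after TAC, against 1.78 to 2.50 CPM in sham. The lysosomal cathepsin gene Ctss rose 1.47-fold in KO (adjusted p = 0.00564) and 1.68-fold in wild type (adjusted p = 0.00139), and the secreted protease gene Htra1 fell by 0.64 in wild type (log2; adjusted p = 0.000845). Timp2 was lower in KO than in wild type both in sham hearts (104 ± 5.62 and 133 ± 5.67 CPM, SD, n = 4 each; adjusted p = 0.0366) and after TAC (127 ± 12.8 and 173 ± 2.01 CPM, SD, n = 4 and 2; adjusted p = 0.016). With libraries of 10 weeks only, Timp2 was not called in sham hearts (log2 −0.41, adjusted p = 0.291), nor was it on coding counts (adjusted p = 0.0939) or without any 1 KO sham library or wild-type sham 2, 3 or 4. After TAC its call was lost without the library labelled wild-type TAC 1 (log2 −0.43, adjusted p = 0.136), where that of Mmp2 held (−0.93, adjusted p = 0.00492) and 4 of the 21, Mmp2, Mmp14, Timp1 and Ctss, were called higher in wild type. In KO the count of 8 was 4 to 9 with 1 library left out, 4 being the count without KO sham 2 or KO TAC 4, and 5 on coding counts. In libraries of 10 weeks, no receptor, assembly gene or protease was called in KO, where few genes were called at all, and 1, 4 and 5 rose in wild type.

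Markers of the cells that make basement membranes were read beside these values. Summed endothelial markers (15 genes) were at 2727 to 3363 CPM in KO TAC and 3071 and 3230 CPM in wild-type TAC, against 2485 to 2984 CPM in KO sham and 2792 to 3439 CPM in wild-type sham, and 3 of 15 rose in KO and none in wild type (edgeR, with 1 at an unadjusted p under 0.05 and 0 called by DESeq2). Summed mural markers (12 genes) overlapped between TAC and sham in both genotypes, with none called higher and 1 lower in each by edgeR, while DESeq2 called 2 higher in KO. KO TAC 3 had the lowest endothelial and mural sums of its group. Summed fibroblast markers (14 genes) were at 3068 to 3476 CPM in KO TAC and 4326 and 5049 CPM in wild-type TAC. They were at 2457 to 2885 CPM in KO sham and 2798 to 3480 CPM in wild-type sham. Of these genes, 5 rose in KO and 7 in wild type, and 5 were lower in KO TAC than in wild-type TAC. The 5 that rose in KO were Col1a1, Col1a2, Col3a1, Mfap5 and Medag, with Lum and Pdgfrl added in wild type. Pdgfra, Tcf21, Dpt, Gsn, Dcn, Dpep1 and Smoc2 were called after TAC in neither genotype. Their log2 differences ran from −0.08 to 0.38 in KO and from −0.35 to 0.43 in wild type. Summed macrophage markers (12 genes) were at 443 to 547 CPM in KO TAC and 531 and 648 CPM in wild-type TAC, against 309 to 423 CPM in KO sham and 412 to 438 CPM in wild-type sham, and 7 rose in each genotype. The part of these cells in the collagen IV rise was not tested. Without the library labelled wild-type TAC 1, 5 fibroblast and 2 macrophage markers rose in wild type and 3 fibroblast markers were lower in KO TAC. In KO, 8 endothelial, 5 mural, 6 fibroblast and 7 macrophage markers rose when KO TAC 3 and KO sham 4 were left out, and with libraries of 10 weeks only none of these did. Cardiomyocyte markers (12 genes) had none called higher and 1 lower in each genotype, and 2 of 7 Schwann cell markers tested fell in each, though none of either list did in wild type without the library labelled wild-type TAC 1. Smoc2 stands both among the fibroblast markers and the other structural genes, and Mcam both among the mural markers and the receptors. Of the mesothelial markers Msln, Upk3b, Upk1b, Lrrn4, Krt19, Krt8 and Muc16 were under 1 CPM in every library, as were the adipocyte markers Lep and Ucp1. The summed adipocyte markers ranged from 0 to 14.5 CPM, with the highest value in wild-type sham 1.

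The clock markers moved with the collagen IV rise as well. Of 15 clock genes, none was called higher and 5 fell in KO after TAC, and 1 was called higher and 7 fell in wild type. In KO, 3 rose and 9 fell when KO TAC 3 and KO sham 4 were left out, and without the library labelled wild-type TAC 1, none was called higher and 2 fell in wild type. KO TAC 3 was the lowest of the KO TAC libraries for 8 of the 10 members and KO sham 4 the highest of the KO sham libraries for 8. As given above, the collagen IV differences in KO were larger without this pair. For both collagen IV genes KO TAC 3 was the lowest and KO sham 4 the highest of its group, so the differences had to grow without them. The time of tissue collection is not given in the sources used here, and its part in the values was not tested.

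Over the 14 libraries, Col4a2 had the pattern most like that of Col4a1 among 11018 genes of at least 5 CPM on average (Pearson r of log2 CPM = 0.993). Next came Trp53i11 (0.973), 2310022B05Rik (0.973), the transcription cofactor gene Vgll3 (0.970) and Mical2, which encodes an actin-oxidising enzyme (0.970), all called higher after TAC in both genotypes. For Lama2 the nearest were Zdhhc3 (0.815), Dcaf5 (0.801), Lacc1 (0.789), Styx (0.782) and Fancm (0.780), none of them called after TAC in either genotype. These correlations describe libraries that share groups, surgery and depth, and are no measure of shared control.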

How the data were processed

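Polyadenylated RNA of mouse hearts was sequenced with strand-specific libraries, per the labels' protocols. The submitters' processing notes list bcl2fastq 2.17.1.14, STAR 2.4.2a, Picard 2.10.3, mm10 and GRCm38, with no role for any of them. Per the file headers, the authors deposited raw read counts for each gene, split into coding, untranslated and ambiguous parts. Which annotation and strand setting the counting used is not given in the sources used here. Reads in no feature (10.74 to 19.02% of counted reads) and ambiguous reads (1.433 to 1.592%) entered neither library sizes nor tests.

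Symbols and positions came from GENCODE M21 (GRCm38), in which 51633 of 51912 identifiers were found. Genes were filtered with filterByExpr (minimum count 10, leaving 15651), scaled by TMM and tested by quasi-likelihood in edgeR 4.0.16 (R 4.3.3). All 14 libraries entered 1 fit with 1 coefficient per group, and Benjamini-Hochberg adjustment ran over the 15651 genes with a threshold of 0.05. Libraries of a group differed by more than sampling noise (lowest chi-square per degree of freedom 3.43 in 19 pairs). Separate animals are not stated in the labels: the spread behind each p-value is that between these samples and may be technical. The fit was tested on simulated data. Replicates were numbered by accession order, which pairs no samples.

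Alternatives were RLE and upper quartile scaling, no filter, DESeq2 1.42.0, only the groups compared, libraries of 10 weeks, coding counts and leaving out each library. Leaving out the 2 libraries with divergent clock genes, alone or with the library labelled wild-type TAC 1, was added after seeing the data, as was the clock list. The members and lists were chosen with earlier results of these data known. In the lists of other chains, receptors, assembly genes and proteases, up to 4 genes of smallest p per direction were named in each TAC comparison and up to 2 between genotypes, except 1 gene that is not reported here. Arntl, Dbp and Gm8730 were named after their values were seen. Promoter sequences are RefSeq's (GRCm38.p6), cut to the part before the first annotated exon, or to the 22 shared bases.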

Additional observations from a re-analysis of the deposited data

Results flagged for a closer look

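In groups of 4 libraries, a library was looked at again where its gap to the nearest other, divided by the range of the group, passed Dixon's 95% critical value. This met 5 of 51 groups of values, where chance gives about 1 in 20 for independent groups. These groups shared libraries, and the ratios were built from the same genes, so the count cannot be set against that rate. KO TAC 3 was the low one in 3 of the 5. Its Col4a1 was 651 CPM, against 1031 to 1098 in the other KO TAC libraries, its Lama5 was 152 CPM, against 184 to 189, and its ratio of Col4a1 to Lamc1 per kb was 3.47, against 4.64 to 4.74. Wild-type sham 1 had 147 CPM of Lamb1, against 186 to 193 in the other wild-type sham libraries. Wild-type sham 3 had a Lama4 share of the alpha chains of 28.3%, against 24.5 to 25.1%.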

How the results depend on the processing

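Over the 10 genes, 5 comparisons and all alternatives, 1140 values were recomputed: 1076 kept their direction and side of the threshold, 11 lost a call, 18 gained one and 35 changed sign, none of these a called value. No paired analysis was possible because the replicate numbers follow the order of deposit. Members called higher in KO after TAC were 2, but 0 at 10 weeks, 4 without KO TAC 3 and KO sham 4, also when the library labelled wild-type TAC 1 was left out too, and 2 to 4 with 1 library left out. In wild type they were 3, but 1 at 10 weeks, 1 without the 3 libraries and 0 to 4 with 1 left out. Members called lower in wild type were 0, but 1 (Lama5) with no filter, by DESeq2 and without KO TAC 3 and KO sham 4, and 0 to 1 with 1 library left out. With 1 library left out, 0 to 2 were called lower in KO sham and 0 to 1 in KO TAC than in wild type.

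Genes called in KO after TAC (2033) were 15 at 10 weeks, where only 2 sham libraries remain, 1005 on coding counts, and 797 to 2306 with 1 library left out. In wild type (1912) they were 1074 with only the groups compared, 938 at 10 weeks, 1169 on coding counts, 734 without the 3 libraries, and 512 to 2224 with 1 left out. Between genotypes in sham (139) they were 387 without filter, 608 by DESeq2, 0 at 10 weeks, 92 on coding counts, 307 without the 3 libraries, and 8 to 531 with 1 left out. After TAC (232) they were 525 without filter, 478 by DESeq2, 60 with only the groups compared, 120 at 10 weeks, 145 on coding counts, 149 without the 2 and 74 without the 3 libraries, and 46 to 359 with 1 left out. For the genotype difference in the TAC effect (3) they were 66 without filter, 38 by DESeq2, 0 at 10 weeks, 0 on coding counts, 1 without the 2 libraries, and 0 to 32 with 1 left out.

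Signs turned for values that were not called. For the TAC effect in KO minus wild type, they were 0.0036 (Col4a2) and 0.016 (Hspg2) at 10 weeks. Without KO TAC 3 and KO sham 4 they were 0.10 (Col4a1), 0.17 (Col4a2) and 0.089 (Hspg2). Without the 3 libraries they were 0.26, 0.31 and 0.016 for the same genes, −0.15 for Lamb2, 0.092 for Lamc1 and 0.0025 for Nid1, and Lama2 was at −0.022 and Lamb2 at 0.093 after TAC in wild type, with Lama2 at 0.041 and Lama5 at −0.21 in KO over wild type after TAC. With 1 library left out, this difference of effects ran from −0.19 to 0.086 for Col4a2, −0.15 to 0.065 for Hspg2, −0.0044 to 0.12 for Lama4, −0.038 to 0.14 for Lamb1, −0.13 to 0.35 for Lamb2 and −0.20 to 0.0020 for Lamc1. The TAC difference in wild type ran from −0.014 to 0.41 for Lama2 and −0.37 to 0.10 for Lamb2, and that of Lamb2 in KO from −0.054 to 0.020. KO over wild type after TAC ran from −0.38 to 0.039 for Lama2, −0.27 to 0.45 for Lama5 and −0.25 to 0.22 for Lamb2. The causes were not tested.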
